A study of Mus musculus with 48 samples.

Results

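Cytochrome P450s and phase II enzymes are the main drug- and lipid-modifying enzymes of the kidney, and 100 of their genes were measured above background here, out of 11559 genes tested. They were taken by symbol: Cyp followed by a digit (without Cyp51, which makes sterols), Ugt, Sult, Fmo, Ces and the Gsta, Gstm, Gstp, Gstt, Gstk and Gstz classes. A gene counted as measured if its probe was detected, with a detection p-value under 0.05 against the negative control beads, on at least 3 of 48 arrays. Where a gene had several such probes, the one with the highest mean was used. The platform listed 139 enzyme symbols under this rule, of which 39 were not kept. Of the 100, 57 were detected on all 48 arrays and 24 on fewer than 24 arrays, a level at which values lie near background.

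The samples were perfused whole kidneys of female NZB/W F1 mice, which spontaneously develop lupus nephritis as they age, measured on 1 array per mouse. Nephritic mice, 30 to 45 weeks old, had shown proteinuria above 300 mg/dl for 2 to 3 weeks, and their blood urea nitrogen was under 25 mg/dl. Young mice were 12 weeks old and had no disease, so diagnosis and age cannot be told apart. Kidneys were taken at Zeitgeber times (ZT, hours after lights on, in a 12 h light and 12 h dark cycle) ZT0, ZT4, ZT8, ZT12, ZT16 and ZT20. There were 3, 3, 5, 5, 3 and 3 nephritic arrays and 4, 4, 4, 6, 4 and 4 young arrays at these times, 22 and 26 in all.

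P450s insert oxygen into drugs, steroids and fatty acids, using electrons passed on by a reductase and by cytochrome b5. Flavin monooxygenases oxidize nitrogen and sulfur, and carboxylesterases split esters. Phase II enzymes then attach a water-soluble group: glucuronic acid (Ugt), sulfate (Sult) or glutathione (Gst). In the kidney most of these enzymes sit in the proximal tubule. Renal Cyp4a and Cyp4f enzymes also turn arachidonic acid into hydroxylated products that constrict vessels, Cyp2c and Cyp2j enzymes make epoxides that relax them, and Cyp27b1 and Cyp24a1 make and break the active form of vitamin D. In liver many of these genes follow the clock through the PAR bZIP factors DBP, TEF and HLF.

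Some arrays bear on the results below. A set of 8 nephritic arrays differed as a whole from the other 14 (all 3 of ZT0, all 3 of ZT4, and replicate 3 of ZT16 and of ZT20). On them Pabpc1, which binds poly(A) tails, lay between 5.94 and 6.69 on the log2 scale, against 8.20 to 9.51 on the other nephritic arrays and 8.52 to 9.37 on young arrays. Separately, 4 nephritic arrays (ZT8 replicate 4, ZT12 replicates 1 and 2, ZT16 replicate 3) had a summed signal of proximal tubule markers of 23103 to 27861, against 37781 or more on every other array. Results were therefore also computed without the 8 arrays, which leaves ZT8 to ZT20 only, with a covariate for them, and without both sets. In fits of group means the covariate can be estimated only at ZT16 and ZT20, from replicate 3 against the other nephritic arrays. ZT16 replicate 3 belongs to both sets, so the covariate does not separate them. Around their group means the 100 genes varied more in nephritic than in young kidneys, with a median residual SD of 0.470 against 0.198 log2, and over all genes tested the medians were 0.263 and 0.164.

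The first question was how the level of these enzymes differed between nephritic and young kidneys. Of the 100 genes 17 were higher in nephritic kidneys and 40 were lower (limma, mean over 6 times of the log2 difference, adjusted p under 0.05). The 17 include Sult4a1 and Cyp4f18, which had passed the detection filter only through their nephritic arrays. Over all genes tested 36.5% were higher and 28.6% lower, so the share called lower was above, and the share called higher below, that of all genes. Their median difference was -0.08 log2, against 0.03 over all genes. Without the 8 arrays 15 were higher and 29 lower, against 25.8% and 20.5% of all genes, and 41 of the 57 calls held. Those lost were Ces1d, Ces1e, Cyp26b1, Cyp2d12, Cyp2d40, Cyp2j9, Cyp39a1, Cyp4a31, Cyp4b1, Fmo2, Gsta3, Gstm1, Gstm2, Sult1d1, Sult2b1 and Ugt2b36. With the covariate 13 were higher and 14 lower, against 19.5% and 14.1%, so the share of lower calls was then close to the background. That fit rests on replicate 3 of ZT16 and of ZT20 for the covariate. Of the 28 genes with the largest differences 14 were not called with the covariate, namely Sult4a1, Cyp4f18, Gstp3, Sult2b1, Cyp3a13, Gsta2, Ugt1a6a, Cyp2d26, Cyp2d10, Ces1e, Gstt3, Fmo4, Ces2g and Cyp4f14. Without the 8 arrays and the 4 low in proximal tubule markers, 17 were higher and 25 lower, against 24% and 19.1%.

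**Figure D1:**
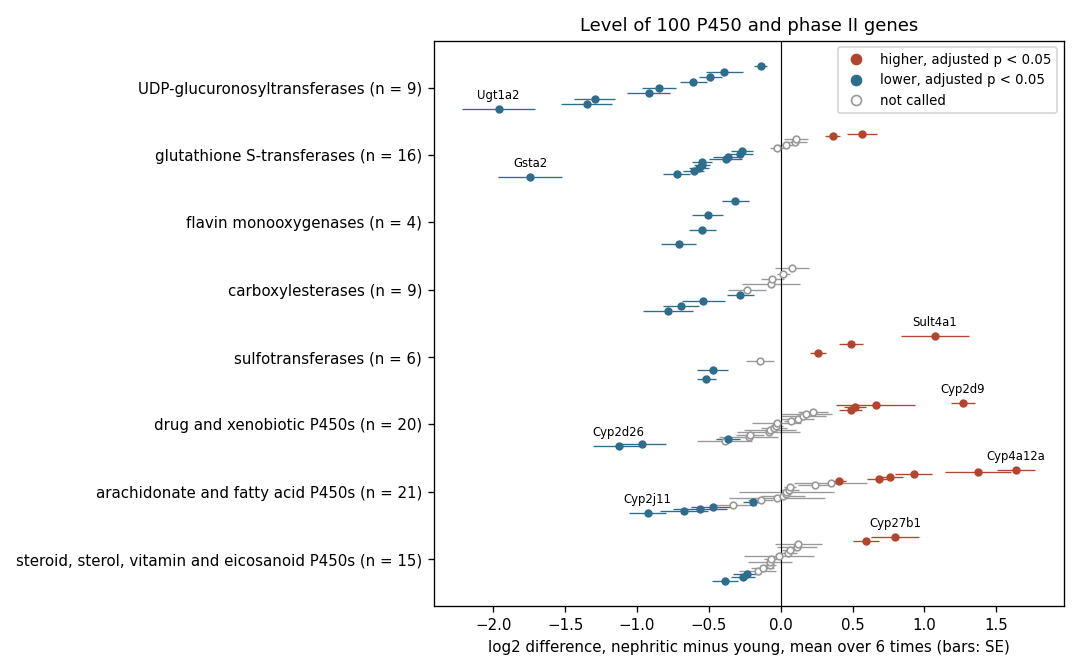
Difference in log2 intensity between nephritic and young kidneys, as the mean over 6 times, for the 100 genes in 8 groups by role. Points are estimates and bars are SE. All 9 Ugt genes and all 4 flavin monooxygenases lie left of 0, whereas the P450 groups hold genes on both sides, with Cyp4a12a at 1.64 and Cyp2d26 at -1.13.

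Proximal tubule markers fell with the enzymes, and markers of infiltrating cells rose. Of 9 tested proximal tubule markers 6 were lower in nephritic kidneys, and their summed signal was 23103 to 50133 on the 14 nephritic arrays and 27861 to 45616 on the 8, against 46658 to 52339 on young arrays. All 5 myeloid markers tested were higher, with sums of 758 to 4857 on the 14 arrays and 1364 to 5288 on the 8, against 380 to 656 on young arrays. In whole kidney, fewer cells of a type and less RNA per cell cannot be told apart. For all 40 enzymes called lower, the lowest nephritic array was among the 11 arrays that belong to the 8 or to the 4 low in proximal tubule markers, and for 23 of them it was among the 4. The 40 were called with these arrays in the fit. The same count over all genes called lower was not computed, so it cannot be read as particular to these enzymes. With both sets left out, 11 nephritic arrays remained.

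The Ugt genes, which include the UDP-glucuronosyltransferases that attach glucuronic acid to bilirubin, hormones and drugs, were all lower by the probes used. All 9 passed, with a median difference of -0.85 log2, against 28.6% of all genes called lower. Without the 8 arrays 8 passed, with the covariate 5 and without both sets 7. The 9 include the relatives Ugt3a1, Ugt3a2 and Ugt8a, and Ugt2b1, which lay near background. Ugt2b36 differed by -0.39 log2, whereas a further Ugt2b36 probe differed by 0.11 log2 (adjusted p = 0.702). Ugt1a2 had a log2 intensity of 6.31 at the lowest, 9.82 at the median and 11.47 at the highest of 22 nephritic arrays, against 10.51, 11.31 and 11.73 on 26 young arrays. Its nephritic arrays spread over a far wider range than the young arrays and overlapped them at the top. The difference of -1.96 ± 0.25 log2 (SE) was 3.90-fold, the largest decrease of the 100 genes (adjusted p = 1.01e-08, below the matching young group mean on 21 of 22 arrays). Without both sets of arrays it was -1.13 log2 (adjusted p = 5.37e-07). Ugt1a6a, which conjugates phenols, had 5.90, 7.78 and 9.03 in nephritic against 8.52, 8.88 and 9.29 in young kidneys (lowest, median, highest). The difference was -1.35 ± 0.18 log2, and -0.59 log2 without both sets, whereas a further Ugt1a6a probe differed by -0.32 log2. Ugt1a10 differed by -0.92 ± 0.15 log2. The Ugt1a transcripts share their last exons, so their probes may not be independent measurements.

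Outside the Ugt1a locus, the glucuronosyltransferase relatives Ugt3a1 and Ugt3a2 were lower on 22 of 22 nephritic arrays each. Ugt3a1 had 9.74, 11.25 and 12.14 in nephritic kidneys against 11.92, 12.54 and 12.69 in young kidneys (lowest, median, highest), a difference of -1.30 ± 0.15 log2. Ugt3a2 had 11.35, 12.60 and 13.12 against 13.11, 13.30 and 13.45, so only the highest nephritic array reached into the young range, and differed by -0.85 ± 0.12 log2. Ugt8a, which makes the myelin-type lipid galactosylceramide, differed by -0.49 ± 0.08 log2 and by -0.62 log2 without the 8 arrays. Ugt2b1 was detected on no nephritic array and on 5 of 26 young arrays, near background on both sides, so no fold is given.

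The lower Ugt1a genes start at separate promoters but end in shared exons, and the windows of Ugt1a2, with the largest decrease, and of Ugt1a10, which holds a motif, are shown. Each window holds 250 bases before and 50 after the start of the RefSeq gene (GRCm38.p6), read 5′ to 3′ along the gene. Capitals mark GTTAATNAT, a form of the element bound by HNF1 factors, which was found on either strand in 0.801% of such windows of all genes.
Ugt1a2 (chr1:88200361-88200660, + strand): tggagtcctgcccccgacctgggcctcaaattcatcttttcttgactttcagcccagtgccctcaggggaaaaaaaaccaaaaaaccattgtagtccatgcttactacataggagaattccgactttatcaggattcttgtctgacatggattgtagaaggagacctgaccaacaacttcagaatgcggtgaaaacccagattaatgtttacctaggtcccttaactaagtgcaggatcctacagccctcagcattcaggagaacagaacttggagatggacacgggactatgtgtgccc
Ugt1a10 (chr1:88055161-88055460, + strand): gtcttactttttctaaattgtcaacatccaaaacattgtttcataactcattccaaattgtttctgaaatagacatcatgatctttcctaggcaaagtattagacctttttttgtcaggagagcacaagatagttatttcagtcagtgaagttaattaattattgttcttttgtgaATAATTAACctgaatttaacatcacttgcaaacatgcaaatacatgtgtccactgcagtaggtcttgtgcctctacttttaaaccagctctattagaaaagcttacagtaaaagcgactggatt
The window of Ugt1a10 has 1 match, on the opposite strand at bases 177 to 185, and that of Ugt1a2 has none. After alignment they were identical at 58.7% of the 300 bases of a window. Sult1d1 was the other gene of the set with this motif. TTATGTAA, an element bound by PAR bZIP factors, was in the windows of Ces1b, Ces1c, Ces1e, Ces1g and Ugt2b1 and in 0.938% of all windows. CACGTG, the E-box bound by CLOCK and BMAL1, was in that of Cyp4v3 and in 7.15% of all windows. TGACNNNGC, the core bound by NRF2, was in 6 of the 79 genes and in 12.4% of all windows. A match shows only that these letters occur in the window.

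Glutathione S-transferases, which detoxify electrophiles, were lower for 10 of 16 genes and higher for 2, against 28.6% and 36.5% of all genes. Their median difference was -0.33 log2. Gsta2, an alpha class enzyme, had 6.15, 9.32 and 10.35 in nephritic against 9.72, 10.34 and 10.78 in young kidneys (lowest, median, highest). Its lowest values stood on the 8 arrays, whose median was 7.55, and the 3 other arrays low in proximal tubule markers had a median of 7.67, against 9.68 on the remaining 11 nephritic arrays. The difference was -1.74 ± 0.22 log2 (3.35-fold, adjusted p = 8.56e-09), and -0.58 log2 without both sets (adjusted p = 0.000204). Gstp1, the pi class enzyme, had 9.74, 10.77 and 11.22 in nephritic against 10.89, 11.28 and 11.46 in young kidneys and differed by -0.61 ± 0.07 log2. Further Gstp1 probes differed by only -0.11 and -0.14 log2. Gstm4, Gstm5 and Gstm6 differed by -0.55 to -0.57 log2, though a further Gstm6 probe differed by 0.09 log2 (adjusted p = 0.275). Gstt3 differed by -0.72 ± 0.10 log2, which was -0.12 log2 without both sets (adjusted p = 0.0935). The tyrosine breakdown enzyme Gstz1 differed by -0.28 ± 0.09 log2. Gstm1 differed by -0.27 ± 0.07 log2, but by -0.04 log2 without the 8 arrays (adjusted p = 0.671) and by 0.17 log2, the opposite direction, with the covariate (adjusted p = 0.141). Gstp3 was higher by 0.56 ± 0.11 log2. Gstm2 was higher by 0.36 ± 0.05 log2, but its call did not hold without the 8 arrays (0.15 log2, adjusted p = 0.0665). Gsta4 (0.11 log2) and Gstt1 (-0.02 log2) were not called.

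The 4 flavin monooxygenases were lower, with a median of -0.53 log2, whereas 28.6% of all genes were lower. Fmo4 had 5.33, 6.74 and 7.54 in nephritic against 7.02, 7.47 and 7.88 in young kidneys (lowest, median, highest), a difference of -0.71 ± 0.12 log2. Fmo1, a major renal form in mice, had 11.02, 12.61 and 13.14 against 12.83, 13.05 and 13.24, a difference of -0.51 ± 0.11 log2, lower on 21 of 22 nephritic arrays. Fmo5 and Fmo2 differed by -0.55 and -0.32 log2. Without the 8 arrays Fmo2 did not pass (adjusted p = 0.404), and with the covariate their adjusted p was 0.089 to 0.667.

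Carboxylesterases were lower for 4 of 9 genes, against 28.6% of all genes. Ces2g differed by -0.69 ± 0.12 log2, with 5.24, 6.54 and 7.22 in nephritic against 6.58, 7.06 and 7.46 in young kidneys. Ces1d, which splits stored triglyceride, differed by -0.54 ± 0.15 log2 and Ces1e by -0.78 ± 0.17 log2. Neither call held without the 8 arrays, where Ces1d differed by -0.44 log2 (adjusted p = 0.0699) and Ces1e by -0.36 log2 (adjusted p = 0.155). Without both sets Ces1d differed by -0.16 log2 (adjusted p = 0.0153).

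Sulfotransferases went both ways, with 3 of 6 higher and 2 lower, against 36.5% and 28.6% of all genes. Sult1c2 was lower on 22 of 22 nephritic arrays, at 9.33, 10.14 and 10.58 against 10.11, 10.62 and 11.09 in young kidneys (lowest, median, highest), a difference of -0.52 ± 0.07 log2. Sult1d1, which sulfates catecholamines in mice, differed by -0.47 ± 0.11 log2, but by -0.23 log2 without the 8 arrays (adjusted p = 0.156) and by -0.09 log2 without both sets (adjusted p = 0.385). A further Sult1d1 probe differed by 0.09 log2 (adjusted p = 0.0807). Sult4a1, known from brain, passed detection on 14 of 22 nephritic arrays, against 1 of 26 young arrays. It was therefore kept through its nephritic arrays, and its difference of 1.07 ± 0.24 log2 was taken against young values near background, so it is no fold change. Its median was 7.65 on the 3 arrays low in proximal tubule markers outside the 8, 5.23 on the 8, 4.69 on the remaining 11 and 4.31 on young arrays, and the difference was 0.49 log2 without both sets. Sult2b1, which sulfates cholesterol, differed by 0.49 ± 0.08 log2, but by 0.13 log2 without the 8 arrays (adjusted p = 0.391). Of 2 other Sult2b1 probes, 1 differed by 0.36 log2 and the other by -0.17 log2 (adjusted p = 0.0124), the opposite direction.

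Drug-metabolizing P450s held the difference with the smallest adjusted p of the set. Cyp2d9, which hydroxylates testosterone and is male-predominant in mouse liver, had 7.31, 7.99 and 8.46 in nephritic kidneys against 5.98, 6.60 and 7.30 in young kidneys (lowest, median, highest). Its 22 nephritic and 26 young arrays did not overlap. How common this was over all genes tested was not computed. The difference was 1.27 ± 0.08 log2 (2.41-fold higher, adjusted p = 1.84e-15), and 1.20 log2 without the 8 arrays and 1.16 log2 without both sets.

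Of the other Cyp2d genes, 3 were called lower, 1 was called higher (Cyp2d12) and Cyp2d22 was not called. Cyp2d26 had 8.33, 10.32 and 11.11 in nephritic against 10.77, 11.10 and 11.56 in young kidneys, a difference of -1.13 ± 0.18 log2. Cyp2d10 had 5.32, 7.37 and 8.13 against 7.52, 8.01 and 8.69, a difference of -0.97 ± 0.17 log2, and Cyp2d40 differed by -0.36 ± 0.08 log2. The call of Cyp2d40 did not hold without the 8 arrays (-0.20 log2, adjusted p = 0.136) or without both sets (-0.12 log2, adjusted p = 0.376). Without both sets of arrays the differences of Cyp2d26 and Cyp2d10 were -0.38 and -0.29 log2. Cyp2d12 differed by 0.66 ± 0.27 log2 (adjusted p = 0.0326) with nephritic values between 4.71 and 10.06, against 6.46 to 8.03 in young kidneys. That call did not hold without the 8 arrays (0.45 log2, adjusted p = 0.331) but was 0.91 log2 without both sets (adjusted p = 0.00042). These genes are close paralogs, and signal shared between their probes was not tested.

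Because Cyp2d9 was called higher and Cyp2d10, Cyp2d40 and Cyp2d26 lower, the bases around the starts of these 4 are shown. The windows are as above, with capitals marking a repeat of AGGNCA with 1 base between the copies, on either strand. This repeat is the type of element bound by HNF4A and by RXR with its partners, and it was found in 0.381% of 32851 such windows of the genome.
Cyp2d9 (chr15:82452127-82452426, + strand): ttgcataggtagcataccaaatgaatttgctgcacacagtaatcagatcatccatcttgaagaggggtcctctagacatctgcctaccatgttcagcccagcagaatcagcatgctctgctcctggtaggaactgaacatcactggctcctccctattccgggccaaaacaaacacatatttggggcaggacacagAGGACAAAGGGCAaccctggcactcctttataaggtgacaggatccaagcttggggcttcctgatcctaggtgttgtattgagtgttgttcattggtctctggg
Cyp2d10 (chr15:82407145-82407444, − strand): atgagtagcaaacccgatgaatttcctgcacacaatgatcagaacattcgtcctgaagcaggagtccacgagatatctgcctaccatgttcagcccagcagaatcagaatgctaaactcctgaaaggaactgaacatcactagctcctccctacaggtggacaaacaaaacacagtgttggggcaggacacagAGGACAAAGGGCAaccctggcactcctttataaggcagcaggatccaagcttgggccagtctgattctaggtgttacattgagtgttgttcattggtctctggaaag
Cyp2d40 (chr15:82764073-82764372, − strand): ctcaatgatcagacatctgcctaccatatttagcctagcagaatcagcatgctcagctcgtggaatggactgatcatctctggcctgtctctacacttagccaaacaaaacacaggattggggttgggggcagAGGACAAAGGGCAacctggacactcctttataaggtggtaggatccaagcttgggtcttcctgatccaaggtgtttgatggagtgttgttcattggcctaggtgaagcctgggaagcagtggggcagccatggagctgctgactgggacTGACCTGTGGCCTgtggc
Cyp2d26 (chr15:82794196-82794495, − strand): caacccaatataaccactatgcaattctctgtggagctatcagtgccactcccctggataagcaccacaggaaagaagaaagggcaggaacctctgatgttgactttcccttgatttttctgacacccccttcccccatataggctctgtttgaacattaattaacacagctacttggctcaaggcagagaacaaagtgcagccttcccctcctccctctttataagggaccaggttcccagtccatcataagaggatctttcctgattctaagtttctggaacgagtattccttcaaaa
The same 13 bases occur in Cyp2d9, which was higher, in Cyp2d10, which was lower, and in Cyp2d40, whose lower call depended on the 8 arrays, at bases 197 to 209, 194 to 206 and 134 to 146 of the windows. Cyp2d40 has another match of the pattern, with other bases, on the opposite strand after its start, and the Cyp2d26 window has no match. After alignment Cyp2d9 and Cyp2d10 were identical at 85% of the 300 bases of a window, whereas the other pairs of these 4 windows shared 57.3 to 66.3%. The repeat was in 3 of the 79 genes of the set with a window, and these were the 3 Cyp2d genes.

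Among the other P450s of this kind, Cyp2s1 and Cyp3a13 were higher, by 0.52 ± 0.08 and 0.49 ± 0.08 log2. Cyp1b1, which oxidizes estradiol and aromatic hydrocarbons, differed by 0.23 log2 (adjusted p = 0.0575), but by 0.70 log2 without the 8 arrays (adjusted p = 0.000105). In all 4 of 20 genes were higher and 3 lower, against 36.5% and 28.6% of all genes. Cyp2e1 (-0.39 ± 0.19 log2, adjusted p = 0.0727), Cyp2d22 (-0.21 ± 0.10 log2, adjusted p = 0.0510) and Cyp3a11 (-0.22 ± 0.20 log2, detected on 7 of 22 nephritic arrays) were not called.

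P450s of arachidonic acid and fatty acids were higher for 6 of 21 genes and lower for 5, against 36.5% and 28.6% of all genes. The 6 include Cyp4f18, which was kept only through its nephritic arrays. Cyp4a12a, the chief fatty acid hydroxylase that makes the vessel-constricting arachidonate product in mouse kidney, had 7.08, 8.11 and 9.69 in nephritic against 5.84, 6.64 and 7.12 in young kidneys (lowest, median, highest). Only the lowest nephritic array reached into the young range. The difference of 1.64 ± 0.13 log2 (3.11-fold, adjusted p = 2.31e-13, higher on 22 of 22 arrays) was the largest increase of the set, and was 1.44 log2 without both sets. Its near copy Cyp4a12b had 5.36, 6.77 and 9.89 against 5.10, 5.66 and 6.46, and differed by 1.38 ± 0.23 log2. The paralogs share sequence, so these may not be separate measurements.

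Cyp4f18, which inactivates leukotriene B in mouse neutrophils, passed detection on 21 of 22 nephritic arrays, against 2 of 26 young arrays, at 4.58, 5.37 and 6.15 against 4.20, 4.33 and 5.61. It was kept through its nephritic arrays, and its difference of 0.93 ± 0.13 log2 was taken against young values near background, so it is no fold change. The myeloid markers given above moved the same way, and their part in this value was not tested. Further Cyp4f18 probes differed by only 0.01 and 0.25 log2. Cyp4f16 (0.76 ± 0.09 log2) and Cyp4v3 (0.68 ± 0.08 log2), the mouse counterpart of human CYP4V2, were also higher. Further Cyp4f16 probes differed by -0.08 and 0.25 log2. The epoxygenase family member Cyp2j11 had 9.51, 10.99 and 11.66 in nephritic against 11.42, 11.76 and 11.91 in young kidneys. It was lower on 22 of 22 nephritic arrays, by 0.93 ± 0.13 log2 (1.90-fold, adjusted p = 5.34e-08). Its 14 nephritic arrays outside the 8 did not overlap the young ones, a feature not counted over all genes. A further Cyp2j11 probe differed by -1.50 log2. Cyp4f14 differed by -0.67 ± 0.17 log2. The calls of Cyp4a31 (-0.56 log2) and Cyp4b1 (-0.47 log2) did not hold without the 8 arrays, and Cyp4a14 was not called (-0.33 ± 0.16 log2, adjusted p = 0.0683).

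**Figure D2:**
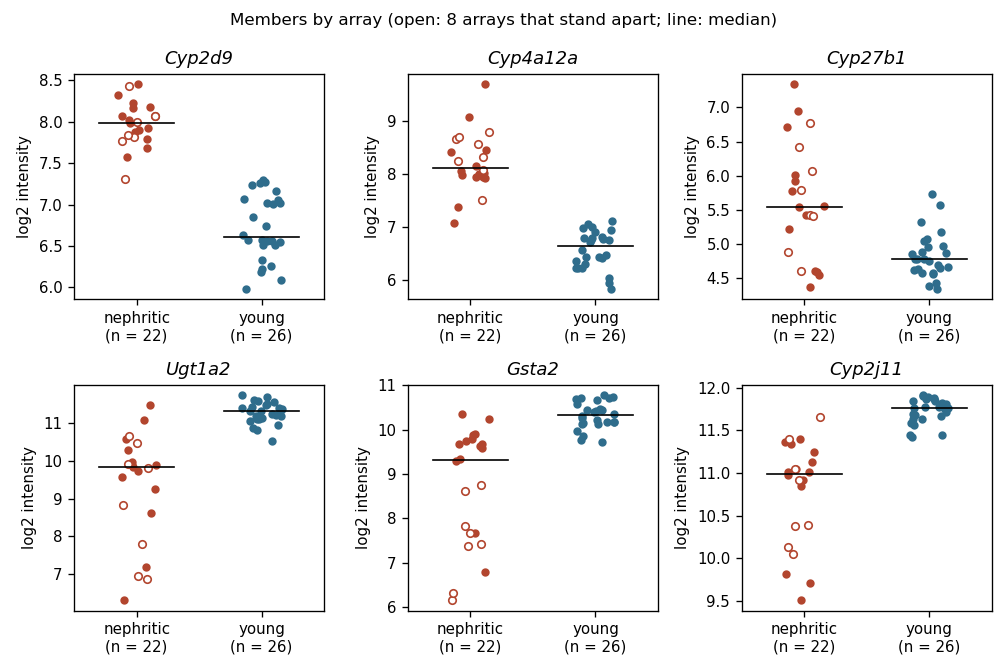
Log2 intensity of 6 genes on each of 22 nephritic (left) and 26 young (right) arrays. Open points are the 8 nephritic arrays that stood apart and lines are medians. For Cyp2d9 every nephritic point lies above every young point, whereas for Ugt1a2 and Gsta2 nephritic values run down to 6.31 and 6.15.

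Of 15 P450s of steroids, sterols, vitamins and eicosanoids 2 were higher and 3 lower, against 36.5% and 28.6% of all genes. Cyp27b1, which activates vitamin D in the proximal tubule, had 4.38, 5.55 and 7.34 in nephritic against 4.35, 4.78 and 5.73 in young kidneys (lowest, median, highest). The groups overlapped widely, and it was higher on 17 of 22 arrays, by 0.80 ± 0.17 log2 (adjusted p = 7.23e-05). Detection was on 17 of 22 nephritic arrays, against 18 of 26 young arrays. The values on the other arrays lay near background, so no fold is given. Cyp24a1, which breaks down the same hormone, had 5.41, 9.04 and 10.63 against 6.62, 8.97 and 10.35 and was not called. Cyp7b1, which hydroxylates oxysterols, differed by 0.59 ± 0.09 log2.

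Which of the enzymes varied over the day was asked next. In nephritic kidneys 9 of the 100 varied with time (limma F-test over 6 times), against 17.2% of all genes. They were Cyp24a1, Ugt2b36, Cyp1b1, Gstt3, Cyp2j9, Gstm5, Gstm2, Cyp4f13 and Gstm4, with ranges of their time means between 0.73 log2 for Gstm4 and 2.61 log2 for Cyp24a1. Ugt2b36 was highest at ZT20 and lowest at ZT0 (1.56 log2), and Gstt3 was highest at ZT8 and lowest at ZT0 (1.44 log2). Without the 8 arrays 0 passed in limma (16 at an unadjusted p under 0.05), against 0.0433% of all genes, and with the covariate 0 passed (29 at an unadjusted p under 0.05), against 0.242%. The 8 hold every nephritic array of ZT0 and ZT4. With the title code of the labels, described below, as a random effect 4 passed, against 10.1% of all genes.

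In young kidneys 28 of the 100 varied with time, against 18.3% of all genes. Of these, 19 (67.9%) had their highest mean at ZT12 or ZT16, around and after lights off, against 34.9% of all 2111 genes that varied. By their titles, young ZT12 replicates 4 to 6 and nephritic ZT12 replicates 3 to 5 form a second array set, with no array at another time. Times of the highest mean were not computed without this set, so set and ZT12 are partly confounded. Young arrays of every time but ZT12 carry a single title code in the labels, so code and time overlap. Fitting the code as a random effect left 13 of the 100, against 9.28% of all genes. Differences between codes could be estimated only at ZT12, where the codes match the array sets. At the other times code and time cannot be told apart, so this fit does not remove the code. These 13 were Ces1d, Cyp2a5, Cyp2d26, Cyp2e1, Cyp2j9, Cyp2s1, Cyp3a13, Gstm4, Gstt2, Sult1a1, Sult1c2, Sult1d1 and Ugt8a.

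Cyp2a5, the coumarin hydroxylase that DBP controls in mouse liver, had the smallest adjusted p for time in young kidneys (6.18e-06). In nephritic kidneys Cyp2a5 values at ZT12 ran from 10.85 to 12.33, and time did not pass (adjusted p = 0.706). In young kidneys Cyp2a5 had 11.41, 11.30, 11.54 and 11.59 at ZT0, 11.50, 11.56, 11.45 and 11.54 at ZT4, and 11.99, 11.92, 12.22 and 12.17 at ZT8. It then had 12.15, 12.30, 12.23, 12.27, 12.64 and 12.28 at ZT12, 11.92, 12.11, 11.95 and 12.34 at ZT16, and 12.03, 11.57, 11.41 and 11.52 at ZT20. All ZT8 to ZT16 values lay above all ZT0 and ZT4 values, with group means between 11.46 at ZT0 and 12.31 at ZT12. The interaction of time and diagnosis did not pass either (adjusted p = 0.0959), so a difference between the courses was not shown.

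The level of Cyp2a5 over all times depended on the probe. The probe used differed by 0.12 log2 (adjusted p = 0.379), whereas 3 other probes of the gene differed by -1.58, -1.37 and -0.28 log2 in nephritic minus young kidneys. Each of these probes also varied with time in young kidneys.

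**Figure D3:**
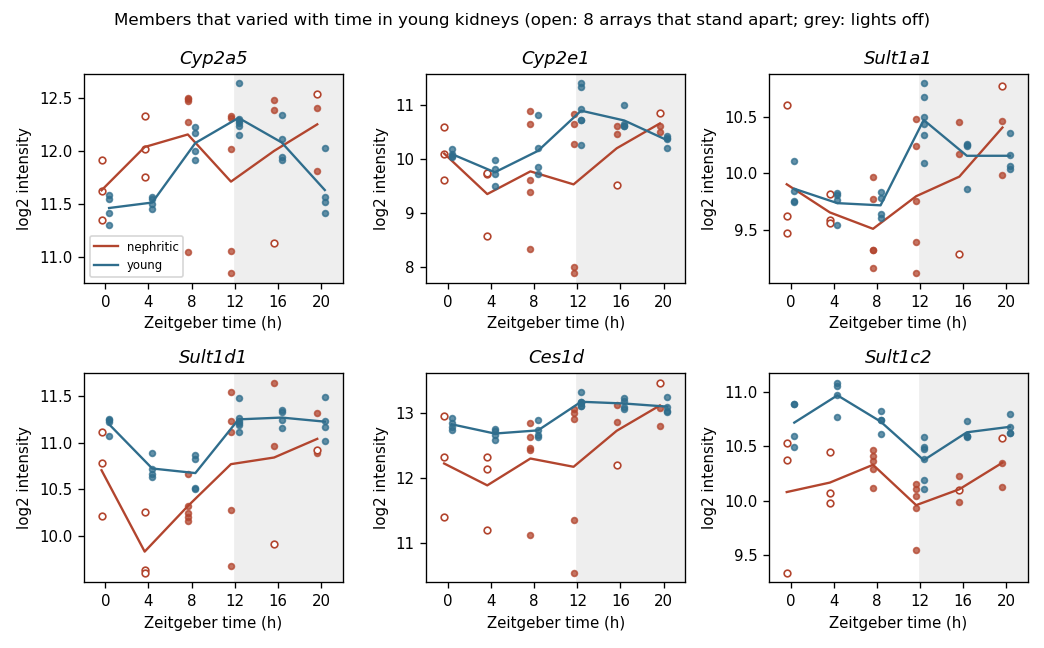
Log2 intensity by Zeitgeber time for 6 genes that varied in young kidneys, with nephritic arrays in red, young arrays in blue and lines through group means. Open points are the 8 nephritic arrays that stood apart and grey marks lights off. Cyp2a5 in young kidneys lies between 11.30 and 11.59 at ZT0 and ZT4 and between 12.15 and 12.64 at ZT12.

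The esterase Ces1d followed (adjusted p = 1.27e-05). In nephritic kidneys Ces1d ran from 10.54 to 13.46 over all times. In young kidneys Ces1d averaged 12.82, 12.68, 12.73, 13.17, 13.14 and 13.09 at ZT0, ZT4, ZT8, ZT12, ZT16 and ZT20, so dark-phase values were higher. In young kidneys all Ces1d values of ZT12 to ZT20, between 13.01 and 13.31, lay above those of ZT0 to ZT8, between 12.58 and 12.93.

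The sulfotransferases Sult1d1, Sult1a1 and Sult1c2 varied as well. In young kidneys Sult1d1 averaged 11.20, 10.72, 10.67, 11.25, 11.27 and 11.22 over the times in the same order (adjusted p = 4.39e-05), low only at ZT4 and ZT8. Sult1a1, which sulfates phenols, averaged 9.86, 9.74, 9.72, 10.47, 10.16 and 10.16 (adjusted p = 0.000107), highest at lights off. Sult1c2 ran the other way, highest at ZT4 and lowest at ZT12 (adjusted p = 0.00178, range of means 0.60 log2).

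Cyp2e1, which oxidizes ethanol and ketone bodies, had the widest range of the young rhythms, at 1.14 log2 (adjusted p = 0.000628). In nephritic kidneys Cyp2e1 had 8.01, 7.88, 10.28, 10.64 and 10.84 at ZT12, where the first 2 are arrays low in proximal tubule markers. In young kidneys Cyp2e1 averaged 10.09, 9.76, 10.15, 10.90, 10.71 and 10.35 over the times in the same order. Among the other young rhythms, means were highest at ZT12 for Cyp3a13 and Gstt2, at ZT16 for Cyp2d9, Cyp4a12a and Cyp20a1, at ZT8 for Cyp2s1 and at ZT4 for Gstm4 and Cyp1b1. The means of these 8 genes ranged over 0.54 to 0.79 log2, and the smallest range of the 28 was 0.32 log2, of Ugt8a.

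Time courses differed between nephritic and young kidneys for 10 of the 100 genes by the interaction test, against 21.3% of all genes. Without the 8 arrays 0 passed (7 at an unadjusted p under 0.05), against 0.502%, and with the covariate 0 passed (20 at an unadjusted p under 0.05), against 2.01%. With the title code as a random effect 0 passed in limma (6 at an unadjusted p under 0.05), against 0.623%. The 24 h cosine differed for 8 genes, against 16.2% of all genes. Without the 8 arrays 0 did (5 at an unadjusted p under 0.05), against 0.0692%, and with the covariate 1 did, Gstt2, against 0.709%. With the title code as a random effect 1 did, against 1.57%. The values that follow therefore rest in part on those arrays and on leaving the code out of the fit.

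Cyp4f13, a fatty acid hydroxylase relative, had the smallest adjusted p of the interaction (0.00051). In nephritic kidneys Cyp4f13 had 9.98, 9.60 and 9.82 at ZT0, 10.23, 10.39 and 10.38 at ZT4, and 9.63, 9.22, 9.47, 9.49 and 9.46 at ZT12. In young kidneys Cyp4f13 had 9.40, 9.07, 9.28 and 9.06 at ZT0, 9.39, 9.64, 9.40 and 9.36 at ZT4, and 9.33, 9.47, 9.40, 9.64, 9.85 and 9.89 at ZT12. At ZT0 and ZT4 all nephritic values, which come from the 8 arrays, lay above the young ones, and at ZT12 the groups overlapped. The young ZT12 values 9.64, 9.85 and 9.89 are those of replicates 4 to 6, the second array set. Nephritic ZT4 replicates 1 and 3 were also among the arrays highest in the liver marker Apoa1 described below.

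Gstm2 was similar, with an interaction adjusted p of 0.00300. In nephritic kidneys Gstm2 had 11.85, 12.01 and 11.56 at ZT4, against 10.91, 10.89, 10.61 and 10.78 in young kidneys. At ZT20 it had 10.72, 11.01 and 10.91 against 10.70, 10.81, 10.88 and 10.87. The groups were apart at ZT4 and overlapped at ZT20.

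Cyp1b1 differed at other times (interaction adjusted p = 0.00383). At ZT12 Cyp1b1 had 7.26, 8.10, 7.24, 7.30 and 7.61 in nephritic kidneys, against 6.58, 6.63, 6.71, 6.50, 6.50 and 6.51 in young kidneys. At ZT4 it had 6.63, 6.50 and 5.81 against 6.94, 6.83, 6.82 and 6.91. All nephritic values were higher at ZT12, on arrays outside the 8, and lower at ZT4, on arrays of the 8.

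Cyp24a1 had the widest range of means over the day in nephritic kidneys among the called genes, 2.61 log2 (interaction adjusted p = 0.0214). In nephritic kidneys Cyp24a1 had 8.58, 7.54 and 5.41 at ZT0 and 10.31, 9.56, 9.27, 10.63 and 9.19 at ZT8. In young kidneys it had 8.78, 9.25, 10.35 and 10.30 at ZT0 and 8.90, 9.28, 8.95 and 8.98 at ZT8. Its values also spread widely within young groups, over 6.62 to 9.78 at ZT12. Gstm4, Gstt3, Fmo5, Sult2b1, Gstt2 and Gstp1 had the other interactions.

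**Figure D4:**
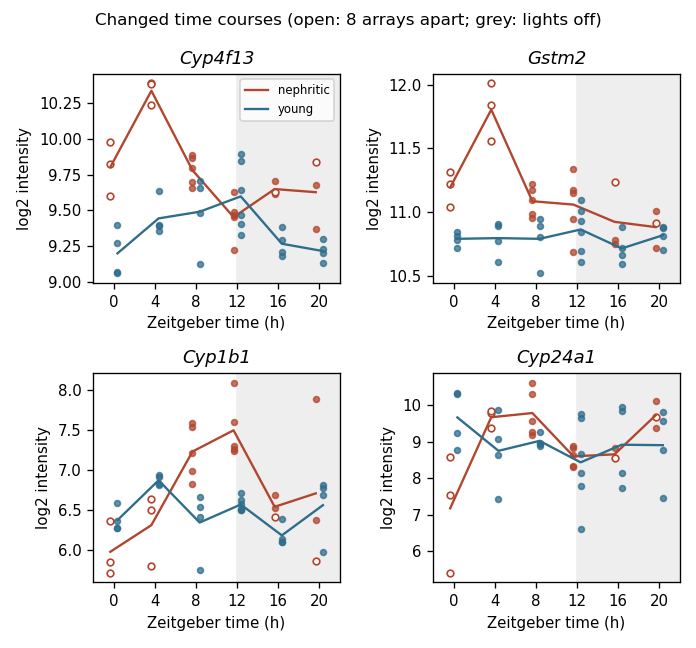
Log2 intensity by Zeitgeber time for 4 genes whose course differed between nephritic (red) and young (blue) kidneys, with lines through group means. Open points are the 8 nephritic arrays that stood apart, which make up all of ZT0 and ZT4. Nephritic Cyp4f13 lies at 10.23 to 10.39 at ZT4 and nephritic Cyp1b1 at 7.24 to 8.10 at ZT12.

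Some of the enzymes are known mainly from liver or adrenal gland, and their highest values fell on a few arrays. Of the 100 genes 11 shared at least 6 of their 8 highest arrays with Apoa1, a liver-made lipoprotein, against 0.623% of all genes tested. They were Cyp2a12, Cyp2c70, Ces1c, Ces3b, Cyp2b13, Cyp2b9, Cyp2c37, Cyp2c50, Cyp2f2, Cyp4f13 and Cyp8b1. Cyp2c50 had a median of 7.61 log2 (6.15 to 8.65) on the 8 arrays highest in Apoa1 and of 5.11 on the other 40. Cyp8b1, which sets the type of bile acid made, had medians of 6.28 and 4.92. These 8 arrays were nephritic ZT4 replicates 1 and 3, ZT8 replicates 2 and 3 and ZT20 replicate 3, and young ZT4 replicate 2 and ZT12 replicates 5 and 6. Liver markers were higher for 2 of 6 and lower for 1, with sums of 2804 to 6896 on the 14 nephritic arrays and 3017 to 10908 on the 8 that stood apart, against 3199 to 8324 on young arrays. The part of liver RNA in these values was not tested.

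The steroidogenic P450s Cyp11a1 and Cyp21a1, of the adrenal cortex, peaked on the same pair of arrays. Cyp11a1 had 7.28 on young ZT12 replicate 5 and 6.66 on young ZT20 replicate 1, with 5.29 the next highest. Cyp21a1 had 6.36 and 6.56 there, with 4.64 the next highest, and was detected on no nephritic array. The 4 other adrenal markers tested had sums of 81.4 to 94.3 on the 14 nephritic arrays and 88.4 to 107.6 on the 8, against 82.3 to 286.9 on young arrays. Without the arrays high in Apoa1 or with Cyp21a1 detected, 27 of the 100 varied with time in young kidneys, of which 20 were among the 28. The 7 added were Ces1c, Cyp2a12, Cyp2b9, Cyp2c50, Cyp2c70, Cyp2f2 and Cyp8b1, all of the group above, and the 8 lost included Cyp1b1, Cyp4a12a, Cyp7b1 and Ugt1a2. The share of all genes that varied in this setting was not computed.

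**Figure D5:**
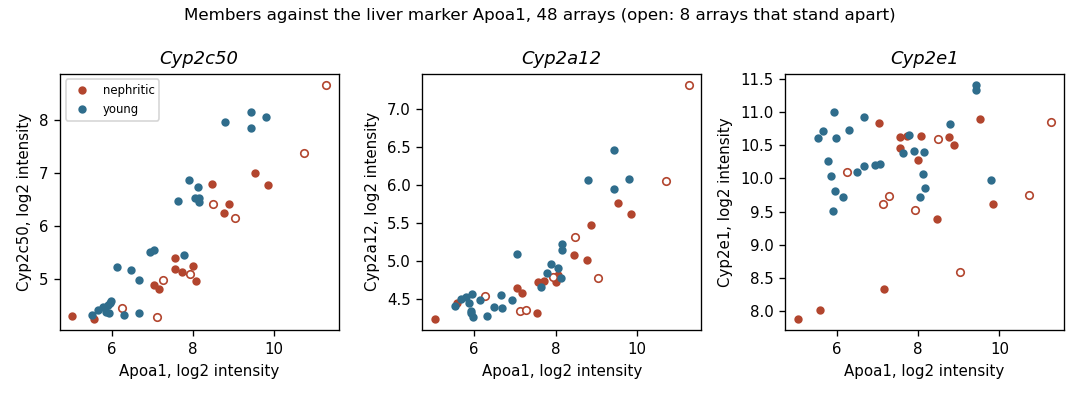
Log2 intensity of Cyp2c50, Cyp2a12 and Cyp2e1 against that of Apoa1 on 48 arrays, with nephritic arrays in red and young arrays in blue. Open points are the 8 nephritic arrays that stood apart. Cyp2c50 and Cyp2a12 are high where Apoa1 is high, up to 8.65 and 7.32, whereas Cyp2e1 is high on arrays at either end.

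Genes that supply or control these enzymes were taken from a list of 39, of which 32 were tested. In nephritic kidneys 6 were higher and 12 lower (18.8% and 37.5%), against 36.5% and 28.6% of all genes, and without the 8 arrays 4 were higher and 9 lower. In young kidneys 11 varied with time (34.4%), against 18.3% of all genes. The list held clock and clock-driven genes with a known rhythm, and Arntl, Dbp, Tef and Nfil3 were among the 11. Part of this share was therefore set by the choice of genes. Cyb5a, the electron donor of P450s, was lower on 22 of 22 arrays, by 1.25 ± 0.12 log2. Papss1 and Papss2, which make the sulfate donor, differed by -0.49 ± 0.06 and -0.73 ± 0.12 log2. Nfe2l2, which encodes NRF2, differed by -0.63 ± 0.08 log2, and its known targets Nqo1 and Gclm by -0.83 ± 0.11 and -0.83 ± 0.07 log2, whereas its target Hmox1 was higher by 0.62 ± 0.14 log2 and its inhibitor Keap1 by 0.44 ± 0.05 log2. Vdr, the vitamin D receptor, differed by -0.41 ± 0.07 log2. In young kidneys Alas1, the first enzyme of heme synthesis, was highest at ZT12 (adjusted p = 0.00163, range 0.89 log2). Epoxide hydrolase Ephx1 was also highest at ZT12 (3.12e-05).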

How the data were processed

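RNA of 48 kidneys was hybridised in 1 colour to Illumina MouseRef-8 v2.0 chips. The authors extracted the deposited signal intensity, linear and not normalized between arrays, and the deposited detection p-value of each probe in GenomeStudio (version not given in the sources used here). A deposited table of quantile-normalized intensity was used as an alternative only (array medians 106.8 to 106.9). Of 25697 probes, 23978 had 1 gene symbol.

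Signals were background-corrected, quantile-normalized and log2-transformed by neqc (offset 16, limma 3.58.1, R 4.3.3), so a unit of 1 is a doubling of the signal with the offset added. The filter kept 16980 probes detected (p under 0.05) on 3 or more arrays, with the probe of highest mean per gene (11559 genes). Time was tested within each diagnosis by limma's moderated F-test. A fit of 12 group means to 48 arrays gave the difference (mean over 6 times of nephritic minus young), its SE and the time by diagnosis interaction, and a 24 h cosine gave the rhythm change. P-values were adjusted by Benjamini-Hochberg over all genes, threshold 0.05. The scripts were tested on simulated data. Array medians of raw signal ran from 98.1 to 117.9 with 12706 to 14077 probes detected, and the number of arrays limits precision.

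Groups came from the source names. Replicates were numbered in listing order, and nothing says that arrays came from separate litters, so p-values measure the spread between these arrays. Members and gene lists were chosen with earlier results of these data known. Named genes were, among those called, the 14 largest differences each way, the 14 widest young ranges, the 10 widest nephritic ranges (9 passed) and the 8 smallest p of the interaction and of the rhythm change, plus listed enzymes whatever their values (Cyp27b1, Cyp24a1, Fmo1 and others). Other genes were named after their values were seen. Alternatives were other scalings, filters, probe averaging, array weights, the title code as a block, a covariate for the 8 arrays, and leaving out arrays. Promoter windows are from RefSeq (GRCm38.p6), matched by symbol for 79 of 100 genes and aligned with Biopython 1.88.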

Additional observations from a re-analysis of the deposited data

Results flagged for a closer look

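The time course of 10 genes differed between nephritic and young kidneys by the interaction test in limma over 48 arrays. The adjusted p was 0.00051 for Cyp4f13, 0.00300 for Gstm2, 0.00383 for Cyp1b1, 0.00476 for Gstm4, 0.0102 for Gstt3, 0.0112 for Fmo5, 0.0214 for Cyp24a1, 0.0264 for Sult2b1, 0.0342 for Gstt2 and 0.0479 for Gstp1. None of them passed without the 8 arrays that stood apart, with the covariate for those arrays, or with the title code as a random effect (0.0751 for Cyp4f13 and 0.116 for Gstm2).

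Of 64 groups of 4 to 6 arrays, looked at for 8 genes, 8 held a value far from the others of its group, where chance flags about 1 in 20. The lowest nephritic ZT8 value of Cyp2a5 was 11.04 on replicate 4 (next 12.27), and that of Ces1d 11.12 on the same array (next 12.43), which was 1 of the 4 arrays low in proximal tubule markers. In young kidneys Cyp2a5 had 12.64 on ZT12 replicate 5 (next 12.30), an array high in Apoa1 and with Cyp21a1 detected. Ces1d had 13.31 on young ZT12 replicate 2 (next 13.17), and Cyp2e1 had 10.996 on young ZT16 replicate 2 (next 10.65). Cyp4f13 had 9.64 on young ZT4 replicate 2 (next 9.40), an array high in Apoa1. Cyp1b1 had 6.39 on young ZT16 replicate 1 (next 6.14) and 5.98 on young ZT20 replicate 3 (next 6.69).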

How the results depend on the processing

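Of 57 called level differences 1 changed direction in any alternative, that of Gstm1, which was 0.17 log2 with the covariate. The 28 genes that varied in young kidneys became 13 once the title code entered as random effect (code block). The 9 in nephritic kidneys became 0 without the 8 arrays, 0 with the covariate for them, 22 without the second array set, 4 with the code block, 25 with array weights, 4 by the 24 h cosine, and, in settings chosen after seeing the data, 0 without arrays with liver or adrenal signal, 28 without the 4 low in proximal tubule markers and 0 without those and the 8. In the same order of settings, the 10 interactions became 0, 0, 28, 0 and 27, with 29 without the 4 arrays and 2 without both sets (Cyp27b1 and Cyp7b1). The 8 rhythm changes became 16 with median scaling, 0 without the 8 arrays, 1 with the covariate, 1 with the code block, 13 with weights, 2 without liver or adrenal arrays, 27 without the 4 arrays and 0 without both sets. The 40 lower genes became 14 with the covariate and 25 without both sets. Leaving out 1 array gave 16 to 19 genes higher, 39 to 43 lower, 21 to 29 varying in young kidneys, 4 (without nephritic ZT4 replicate 2) to 15 (without nephritic ZT20 replicate 1) in nephritic kidneys, 7 to 14 interactions and 4 (without young ZT12 replicate 6) to 10 rhythm changes. Of the 57 called level differences 41 held without the 8 arrays, 24 with the covariate, 50 with the code block and 40 without both sets. The cause of these shifts was not tested, though without the 8 arrays no nephritic ZT0 or ZT4 array is left. For settings with no share of all genes given above, none was computed, so those counts cannot be read as particular to these enzymes. No paired analysis was possible because replicates were numbered in listing order. Genes near background have only a few detected arrays behind their values.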

Other observations

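Among the 39 enzyme symbols not kept, Cyp1a1, the classic target of the aryl hydrocarbon receptor, was detected on 0 of 48 arrays, and Cyp11b1, of the adrenal cortex, on 2. Of the 100 genes kept, 23 had 34 further probes above the same filter, and 11 of these probes differed from the probe used in the sign of the nephritic minus young difference, 1 of them with both past the threshold. Besides the genes named above, further probes differed less for Ces2g (-0.22 log2) and more for Cyp2d26 (-1.63 and -1.60 log2). Those of Cyp3a13 differed by 0.06 and 0.43 log2.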
